A study of Mus musculus with 6 samples.

Results

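The 10 genes described here encode the subunits of the transcription factor NF-kB (Nfkb1, Nfkb2, Rel, Rela and Relb), the classical IkB proteins (Nfkbia, Nfkbib and Nfkbie) and the nuclear IkB proteins (Nfkbiz and Bcl3). They were taken by symbol from a deposited table of read counts for 24421 genes, and all 10 were found and were abundant enough to be tested. The cells were monocytes, phagocytes that arise in bone marrow and circulate in blood; they were obtained by sorting marrow cells of B6 mice. The study compared 3 libraries from cells kept for 3 h with 5 ng of GM-CSF, a growth factor of granulocytes and macrophages, with 3 control libraries. The volume that held the 5 ng is not stated, and no age or sex is given in the sources used here. By their source label the controls were taken fresh, while the treatment label speaks of medium with and without the factor, so effects of culture and of GM-CSF cannot be told apart. Whether replicates stem from different animals is not stated, and the p-values therefore reflect only the spread among these samples, which may be technical.

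NF-kB is a family of dimers whose members share a Rel homology domain that binds DNA and the dimer partner. RelA, RelB and c-Rel (the product of Rel) carry transactivation domains, whereas Nfkb1 and Nfkb2 encode precursors that are processed to shorter subunits without one. Classical IkB proteins hold dimers inactive, mostly in the cytoplasm, until the IkB kinase complex marks them for degradation; nuclear IkB proteins bind dimers in the nucleus and change which genes they act on. Several of these genes are themselves NF-kB targets, which makes the family a textbook case of feedback in phagocytes. The counts measure messenger RNA, not the proteins, their processing or their place in the cell.

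With GM-CSF, 9 of the 10 genes rose at an adjusted p under 0.05 (edgeR quasi-likelihood test, Benjamini-Hochberg adjustment over 11731 genes), and 7 of them rose at least 2-fold. Among all tested genes 64.0% changed, 32.8% rose and 11.9% rose at least 2-fold. The median log2 fold change of the 10 genes was 1.19, beside 0.01 over all genes tested. Rel rose most and Rela least among the 9, and Nfkbiz was lower without passing the test. No member fell by edgeR, limma-voom or DESeq2 (0 in each), while 1 was lower at an unadjusted p under 0.05 in edgeR. All 9 that rose had every GM-CSF library above every control library in CPM (each gene's share of the gene counts, scaled to a common total), an order seen in 34.9% of tested genes. The groups were apart for all 10, and for 69.5% of tested genes in either direction.

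**Figure D1:**
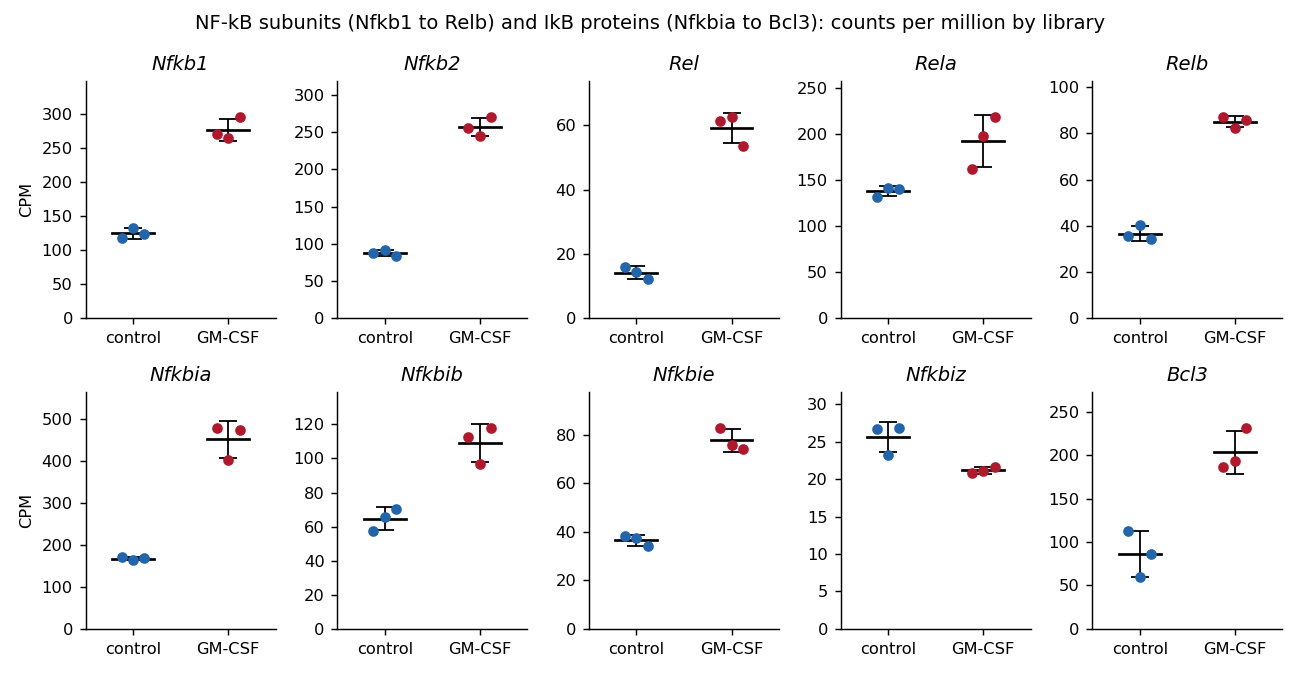
CPM of the 10 genes in the 3 control libraries (blue points) and the 3 GM-CSF libraries (red points); horizontal lines are means and error bars are SD (n = 3). All GM-CSF points lie above all control points in 9 panels and below them in the panel of Nfkbiz.

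The 250 bases before transcription starts were searched on both strands for the NF-kB consensus site GGGRNNYYCC (R is A or G, Y is C or T, N is any base). RefSeq start sites on GRCm38.p6 were matched by symbol for 7 of the 10 genes in 9 windows, 3 of them for Nfkb2. Nfkb1, Relb and Nfkbiz had no window and were not searched. The consensus was present for 4 of the 7 genes searched, namely Nfkbia, Rel, Nfkbie and Nfkb2. Over all genes it was present in 7.25% of 32851 such windows. That share is per window, while Nfkb2 counts as 1 gene with 3 windows. It was not found in the windows of Rela, Nfkbib and Bcl3. The log2 fold changes of the 4 genes with a match were 1.44, 2.07, 1.09 and 1.56, and those of the 3 without were 0.49, 0.77 and 1.24, so the ranges overlapped. A match of letters is a description of the sequence, and binding was not measured.

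The RefSeq windows of Nfkbia, Rel and Nfkbie, which hold at most 1 exon base, are shown whole because each carries a match, 5′ to 3′, with the consensus in capitals. That of Nfkbia is chr12:55492648-55492897 on the minus strand, with the match 29 to 20 bases before the start. That of Rel is chr11:23770970-23771219 on the minus strand, with overlapping matches on both strands between 92 and 82 bases before the start. That of Nfkbie is chr17:45555450-45555699 on the plus strand, with the match 106 to 97 bases before the start.
Nfkbia: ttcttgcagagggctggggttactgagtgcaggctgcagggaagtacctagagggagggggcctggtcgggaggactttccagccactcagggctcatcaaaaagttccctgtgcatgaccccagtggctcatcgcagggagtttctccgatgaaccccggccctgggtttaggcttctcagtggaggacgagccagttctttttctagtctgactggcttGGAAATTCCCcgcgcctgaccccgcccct
Rel: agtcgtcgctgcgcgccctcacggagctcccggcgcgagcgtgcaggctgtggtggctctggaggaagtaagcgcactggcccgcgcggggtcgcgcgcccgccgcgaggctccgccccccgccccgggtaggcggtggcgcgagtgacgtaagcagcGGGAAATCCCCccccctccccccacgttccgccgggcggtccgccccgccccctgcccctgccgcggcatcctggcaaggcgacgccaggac
Nfkbie: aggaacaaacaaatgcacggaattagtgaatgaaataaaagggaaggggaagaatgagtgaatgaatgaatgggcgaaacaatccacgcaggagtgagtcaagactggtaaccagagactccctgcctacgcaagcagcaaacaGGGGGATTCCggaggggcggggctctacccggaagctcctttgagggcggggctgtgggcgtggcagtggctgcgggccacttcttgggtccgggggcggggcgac

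The window before the first RefSeq start of Nfkb2 lies wholly in exon sequence of a longer GENCODE transcript, so only the matches with their flanks are shown. They lie at chr19:46304691-46304715 and chr19:46304719-46304736 on the plus strand, 39 to 29 and 11 to 2 bases before that start. The window of the second start holds a match at chr19:46305452-46305475, 236 to 227 bases before it, and that of the third start holds one at chr19:46305698-46305721, 225 to 216 bases before it. Annotated exons cover much of these windows too: 167 of 250 bases of the second, none of them of Nfkb2, and 234 of the third, in exons of Nfkb2.
Nfkb2, first match: tcgtcacGGGAATTCCCCccctcgg
Nfkb2, second match: gccgaaaGGGGCTTTCCc
Nfkb2, match before the second start: gacggcaGGAATGTCCCcacaaaa
Nfkb2, match before the third start: tattttcGGGACTTTCCtaagcag

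The motif bound by STAT factors, TTCNNNGAA, was searched as well, since GM-CSF acts through STAT5. It was found once, as TTCCCCGAA, 148 to 140 bases before the first start of Nfkb2, and is present in 7.02% of all windows. The AP-1 motif TGANTCA was found in windows of Nfkb2 and Nfkbie and in 6.75% of all windows. Both motifs read the same on the 2 strands, and neither overlapped a consensus match.

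Rel showed the largest change of the subunits. It encodes c-Rel, a subunit of lymphoid and myeloid cells. Its level was 61.3, 62.55 and 53.7 CPM in GM-CSF replicates 1, 2 and 3 and 16.0, 14.35 and 12.1 CPM in control replicates 1, 2 and 3. The lowest GM-CSF library was thus more than 3 times as high as the highest control library. Rel rose 4.19-fold (log2 fold change 2.07 ± 0.13, SE; edgeR adjusted p = 1.42e-07), which placed it at percentile 95.8 of all tested genes ranked by log2 fold change.

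Nfkb2 encodes the precursor at the centre of the non-canonical NF-kB pathway. It stood at 255, 245 and 269.9 CPM in the GM-CSF libraries and at 87.7, 91.1 and 83.8 CPM in the controls. Both groups were tight, and Nfkb2 rose 2.95-fold (log2 fold change 1.56 ± 0.08, SE; edgeR adjusted p = 2.72e-08). Relb, whose product is the usual partner of the processed Nfkb2 subunit, was at 86.95, 82.3 and 85.8 CPM with GM-CSF and at 35.4, 40.1 and 34.2 CPM without. It rose 2.33-fold (1.22 ± 0.09; adjusted p = 6.29e-07). Exons of Psd, on the opposite strand, overlap those of Nfkb2 over 299 bases. Reads there may have been set aside as ambiguous or mixed between the 2 genes. Psd itself was at 6.20 to 7.33 CPM with GM-CSF and at 2.67 to 3.73 CPM in controls.

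Nfkb1 and Rela encode the subunits of the classical heterodimer, and they did not move by the same amount. Nfkb1 was at 270.2, 264 and 295 CPM in the GM-CSF libraries and at 117, 132 and 123 CPM in the controls. It rose 2.24-fold (1.16 ± 0.08; adjusted p = 2.91e-07). Rela, the main transactivating subunit, was at 162, 198 and 218 CPM with GM-CSF and at 132, 141 and 140.2 CPM in the controls. GM-CSF replicate 1 lay close to the controls and the spread among GM-CSF libraries (SD 28.4 CPM) was wider than among controls (5.25 CPM). Rela rose 1.41-fold (0.49 ± 0.10; adjusted p = 0.00119), the smallest rise of the 9.

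All 3 classical IkB genes rose. Nfkbia, which encodes IkB alpha, the rapidly resynthesised inhibitor of RelA-containing dimers, was at 478, 401 and 473 CPM in the GM-CSF libraries and at 169.8, 164 and 168 CPM in the controls. It was the most abundant member by count in every library and rose 2.71-fold (log2 fold change 1.44 ± 0.09, SE; edgeR adjusted p = 1.28e-07). Nfkbie, which encodes IkB epsilon, a further inducible inhibitor, was at 82.8, 75.8 and 74.3 CPM against 38.3, 37.4 and 34.1 CPM. It rose 2.13-fold (1.09 ± 0.09; adjusted p = 1.72e-06). Nfkbib, which encodes IkB beta, was at 112, 96.6 and 118 CPM against 57.2, 65.8 and 70.5 CPM. Its rise of 1.70-fold (0.77 ± 0.10; adjusted p = 6.02e-05) was the smallest of the 3. Exons of Nfkbib overlap those of Sirt2 on the opposite strand over 42 bases, and Sirt2 was at 54.3 to 58.7 CPM with GM-CSF and at 58.3 to 64.8 CPM in controls.

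The nuclear IkB genes went apart. Bcl3, whose product joins the DNA-binding homodimers of the processed subunits, was at 186, 193 and 231 CPM in the GM-CSF libraries and at 112, 59.5 and 86.7 CPM in the controls. Its controls spread more widely for their level than those of any other member (mean 86.1 ± 26.4 CPM, SD, n = 3), with replicate 1 highest and replicate 2 lowest. Bcl3 rose 2.37-fold (1.24 ± 0.19; adjusted p = 1.53e-04). Nfkbiz encodes IkB zeta, a nuclear cofactor needed for a set of secondary response genes such as Il6. It was at 20.9, 21.0 and 21.7 CPM with GM-CSF and at 26.7, 23.3 and 26.85 CPM in the controls.

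Each GM-CSF library thus lay below each control library for Nfkbiz, an order found in 34.7% of tested genes. The log2 fold change of -0.27 ± 0.11 (SE) missed the threshold, with an edgeR adjusted p = 0.0511, and 31.2% of tested genes were called lower. It was called lower in 6 of 16 alternative analyses, with an adjusted p from 0.00946 to 0.153 over all 16. Without control replicate 2, the lowest control, it was -0.33 (adjusted p = 0.0370); without control replicate 1 it was -0.22 (adjusted p = 0.153).

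**Figure D2:**
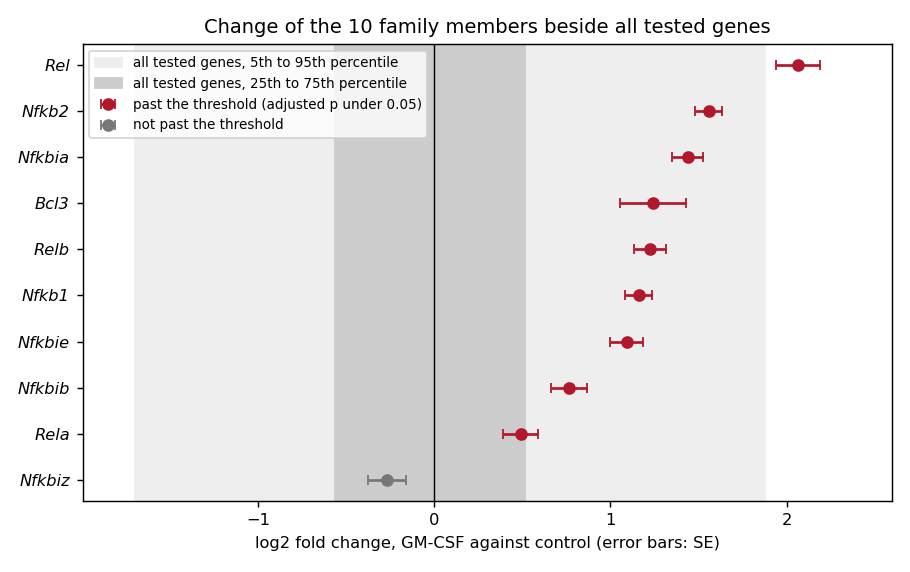
Log2 fold change of each gene, GM-CSF against control, with SE (error bars); grey bands hold the middle of all 11731 tested genes. Rel lies beyond the 95th percentile of all genes (1.88), Rela lies just inside the 75th percentile (0.52), and Nfkbiz is the only one below 0.

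Levels of different genes were compared as RPKM, which is CPM divided by the exon length in kilobases. In controls the order was Nfkbia (104 ± 1.85, SD, n = 3), Rela (44.9 ± 1.71), Bcl3 (34.8 ± 10.65), Nfkbib (29.7 ± 3.11), Nfkb2 (19.1 ± 0.792), Nfkbie (12.01 ± 0.728), Nfkb1 (10.3 ± 0.640), Relb (9.42 ± 0.801), Nfkbiz (5.10 ± 0.405) and Rel (1.90 ± 0.261). Neighbours whose control libraries overlapped were Rela and Bcl3, Bcl3 and Nfkbib, and Nfkb1 and Relb. With GM-CSF the RPKM order was Nfkbia (279.9 ± 26.8), Bcl3 (82.1 ± 9.91), Rela (62.7 ± 9.25), Nfkb2 (56.0 ± 2.74), Nfkbib (50.2 ± 5.11), Nfkbie (25.5 ± 1.496), Nfkb1 (22.9 ± 1.35), Relb (21.9 ± 0.631), Rel (7.93 ± 0.640) and Nfkbiz (4.22 ± 0.0841). There Rela and Nfkb2, Nfkb2 and Nfkbib, Nfkbie and Nfkb1, and Nfkb1 and Relb overlapped. Rel and Nfkbiz exchanged places: in controls Nfkbiz was above Rel in all 3 libraries, and with GM-CSF Rel was above Nfkbiz in all 3.

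The make-up of the family differed between the groups on this RPKM scale. Rela held 51.7%, 51.65% and 54.0% of the summed level of the 5 subunits in control replicates 1, 2 and 3 and 32.7%, 38.0% and 38.7% in the GM-CSF libraries. Nfkb2 held 23.1%, 22.3% and 21.6% in controls and 34.5%, 31.6% and 32.1% with GM-CSF. Nfkb2 thus came closer to Rela in the GM-CSF libraries, where their levels overlapped between libraries. Within libraries, Nfkb2 was above Rela only in GM-CSF replicate 1 (55.6 against 52.7 RPKM). Rela stayed above Nfkb2 in replicate 2 (64.4 against 53.5 RPKM) and replicate 3 (71.0 against 58.9 RPKM). The share of Rel was 1.92% to 2.58% in controls and 3.92% to 5.09% with GM-CSF.

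Among the 5 IkB genes Nfkbia held the largest share in every library, 54.1% to 58.8% in controls and 62.2% to 65.2% with GM-CSF. Nfkbiz went from 2.68% to 2.84% in controls to 0.914% to 1.05% with GM-CSF. The shares of Bcl3 and Nfkbie overlapped between the groups. The summed RPKM was 83.0 to 89.1 in controls and 161 to 184 with GM-CSF for the subunits, and 173 to 195 and 400.4 to 470.4 for the IkB genes. These shares and sums are descriptions without a test; for 3 against 3 libraries an exact two-sided permutation test cannot give a p below 0.1.

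The order depends on the length taken for each gene, most of all for Nfkb1, whose annotated exons cover 12061 bases together while its longest coding transcript has 4117. With the length of the longest coding transcript, a choice made after seeing the data, Nfkb1 stood at 30.2 RPKM in controls and 67.1 RPKM with GM-CSF and moved from place 7 to places 5 and 4. Relb (2209 in place of 3885 bases) then stood at 16.6 RPKM in controls and 38.5 RPKM with GM-CSF, above Nfkbie at 15.02 and 31.9 RPKM. Rela then held 40.7% to 42.8% of the subunit sum in controls and 24.9% to 29.9% with GM-CSF, and Nfkb2 18.1% to 19.3% and 25.9% to 27.7%. The summed IkB level per summed subunit level was 1.94 to 2.35 in controls and 2.37 to 2.82 with GM-CSF by union of exons, but 1.48 to 1.85 and 1.79 to 2.08 by longest transcript, where the groups overlapped.

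**Figure D3:**
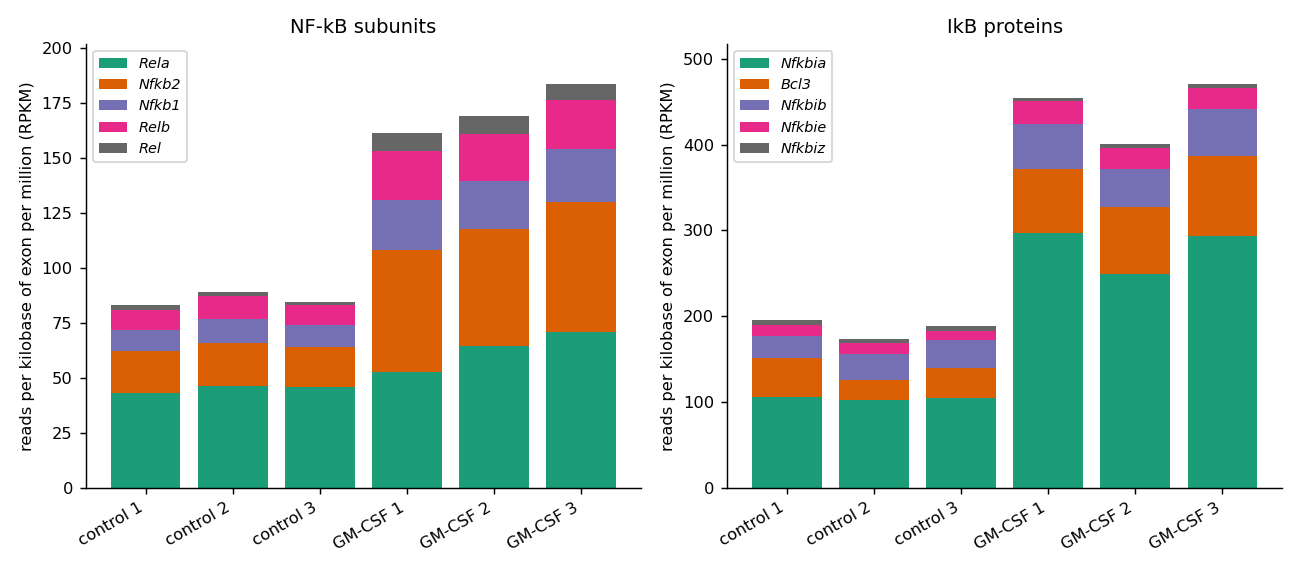
Stacked RPKM of the 5 subunit genes (left) and the 5 IkB genes (right) in each library, with exon-union length. The summed subunit level is 83.0 to 89.1 in controls and 161 to 184 with GM-CSF, and the Nfkb2 segment exceeds the Rela segment only in GM-CSF replicate 1.

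The kinases and adaptors that activate NF-kB went both ways, as did genes in general (32.8% of tested genes rose and 31.2% fell). All 22 genes were tested, and 10 rose, 7 fell and 5 were not called, with a median log2 fold change of 0.15. In the IkB kinase complex, Ikbkb, which encodes the kinase of the canonical pathway, fell from 311 ± 10.98 to 181 ± 7.55 CPM (SD, n = 3; log2 fold change -0.77 ± 0.07, SE; edgeR adjusted p = 2.37e-06). Chuk, the kinase of the non-canonical pathway, rose from 67.1 ± 5.06 to 111 ± 3.40 CPM (0.74 ± 0.08), and the scaffold gene Ikbkg was at 39.4 ± 3.55 and 36.3 ± 3.62 CPM (adjusted p = 0.382). Map3k14, which encodes the NF-kB-inducing kinase upstream of Chuk, was at 41.4 ± 3.01 and 43.4 ± 3.80 CPM (adjusted p = 0.525). The largest changes of the list were rises of Malt1, a paracaspase that relays receptor signals to the kinase complex (74.98 ± 4.48 to 446 ± 11.1 CPM; 2.58 ± 0.08), and of Ripk2, the kinase downstream of NOD receptors (2.03 ± 0.10). Traf6, a ubiquitin ligase of Toll-like and IL-1 receptor signalling, rose by 1.32 ± 0.10 on the log2 scale.

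Of 18 ubiquitin-dependent regulators, 8 rose, 2 fell and 8 were not called (median 0.19), beside 64.0% called over all tested genes. Tnip3, which encodes an A20-binding inhibitor, went from 2.22 ± 0.647 to 39.5 ± 3.00 CPM (4.15 ± 0.19; edgeR adjusted p = 1.53e-08). Tnfaip3, which encodes A20 itself, went from 26.1 ± 4.24 to 73.8 ± 6.15 CPM (1.51 ± 0.12), and Fbxw11, part of the ligase that marks phosphorylated IkB proteins, rose too (0.63 ± 0.07). Lower calls were made for Rnf31 (-0.42 ± 0.09) and Rbck1 (-0.36 ± 0.07), both subunits of the linear ubiquitin assembly complex. With upper quartile scaling 4 of the list fell.

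Of 10 other IkB-like proteins and cofactors, 5 rose, 3 fell and 2 were not called (median 0.35), and the shares over all tested genes were 32.8% higher and 31.2% lower. Nfkbid, which encodes the nuclear IkB protein IkB-NS, rose from 35.8 ± 2.65 to 106 ± 12.3 CPM (1.57 ± 0.10; edgeR adjusted p = 2.25e-07), so that of the nuclear IkB genes measured Bcl3 and Nfkbid rose while Nfkbiz did not. The coactivator gene Crebbp (0.45 ± 0.10), the Ras-like regulator gene Nkiras1 (0.84 ± 0.19) and the repressor gene Nkrf (1.11 ± 0.40) also rose. Nkrf was at 0.880 ± 0.397 and 1.89 ± 0.307 CPM, and its call ended without control replicate 1 (adjusted p = 0.0587), control replicate 2 (0.111), GM-CSF replicate 1 (0.0774) or GM-CSF replicate 2 (0.0882). Pdlim2, which encodes a ligase that ends RelA activity in the nucleus, fell from 35.6 ± 1.86 to 10.6 ± 1.88 CPM (-1.74 ± 0.14; adjusted p = 1.01e-06). Nfkbil1 (-0.55 ± 0.12) and Commd1 (-0.32 ± 0.08), a further negative regulator, fell as well.

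Of 30 known target genes 25 passed the filter on low counts, and of these 21 rose, 2 fell and 2 were not called (median 2.23, beside 0.01 over all tested genes, of which 32.8% rose). The other 5, Ccl20, Cxcl1, Il12b, Il23a and Nos2, had at most 17 reads in any library. The largest rises were in Ier3, an early response gene (10.6 ± 2.97 to 1006 ± 107 CPM; log2 fold change 6.58 ± 0.20), Cd83 (6.51 ± 0.12) and Il1b (6.44 ± 0.23), all several log2 units above the change of any subunit. Irf1, a transcription factor gene also induced by interferon, fell (-0.63 ± 0.10; edgeR adjusted p = 2.29e-04), as did Ccl5 (-1.34 ± 0.42), whose call ended without control replicate 3 (-1.19, adjusted p = 0.0677). Ccl5 was low, at 1.14 ± 0.241 CPM in controls and 0.448 ± 0.140 CPM with GM-CSF (7, 10 and 7 reads). Since a filter on counts keeps genes that are high in only 1 group, the counts of called targets describe the 25 tested.

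**Figure D4:**
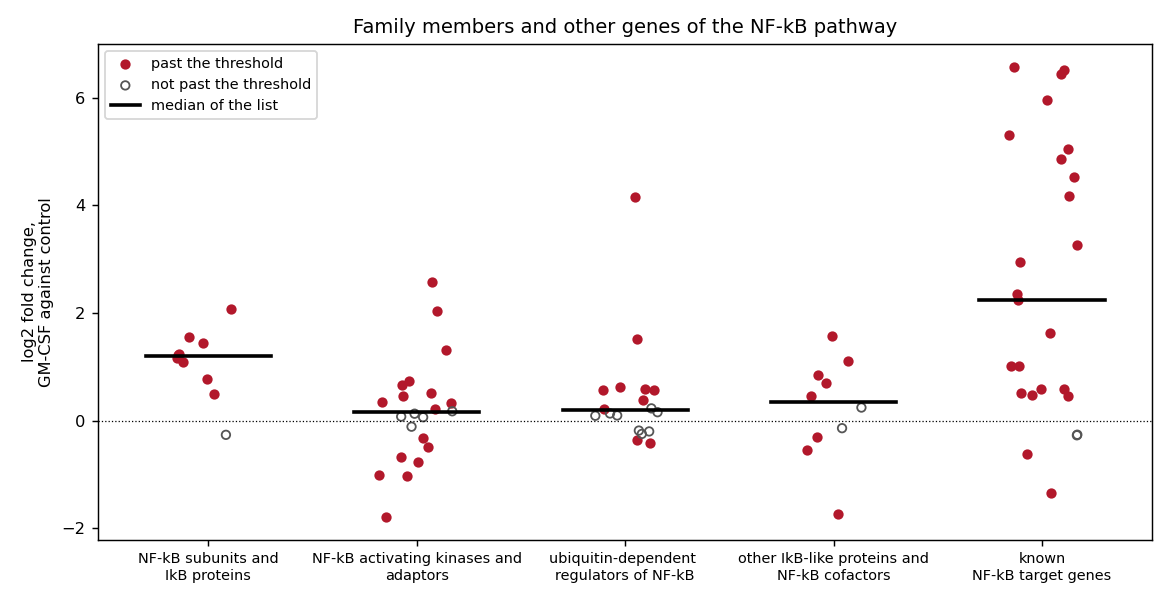
Log2 fold change of each tested gene in the family and in 4 lists of other pathway genes; filled points passed the threshold, open points did not, and bars are medians. The family median is 1.19, the medians of the upstream and regulator lists lie between 0.15 and 0.35, and that of the targets is 2.23.

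The genes with the pattern nearest to that of Rel over the 6 libraries, by the root mean square difference of centred log2 CPM, were Irak2 (0.07), Cd86 (0.09) and Insig1 (0.09). Those nearest to Nfkb2 were Eml4 (0.03), Rpl10a (0.04) and Ptpn2 (0.05). The measure is in log2 units and mostly reflects the size of the difference between the groups. Rpl10a has near-identical copies elsewhere in the genome, so its count is uncertain.

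Libraries held 16643228 to 25232956 reads in genes, and no member had fewer than 252 reads in any library. GM-CSF replicate 3 had the fewest genes detected (13378). Its log2 CPM correlated with GM-CSF replicates 1 and 2 at 0.987 and 0.990. The correlation was 0.994 between replicates 1 and 2 and 0.995 for each pair of controls. Monocyte markers were present, all 10 detected. Csf1r was at 1596 to 1666 CPM with GM-CSF and at 1362 to 1602 CPM in controls and was not called. Ly6c2 fell, at 3184 to 3238 CPM with GM-CSF and 4027 to 4176 CPM in controls. Ccr2 fell too (mean 1877 to 521 CPM), while Cd14 rose (mean 39.7 to 851 CPM). The sum of the 10 markers, led by Lyz2, was 27789 to 30382 CPM with GM-CSF and 59306 to 68228 CPM in controls, and 2 of 10 rose and 5 fell. Over all tested genes 32.8% rose and 31.2% fell. The list totals here and below include any markers too low to be tested. Neutrophil and precursor markers were present too, with all 10 detected and Mpo highest (mean 4420 CPM), and their sum was 10829 to 13653 CPM with GM-CSF and 16018 to 21132 CPM in controls; 5 fell and 1 rose. Sums were 34.7 to 43.3 and 62.1 to 71.5 CPM for B cells (Cd79b highest, 0 of 7 rose and 2 fell), 7.64 to 9.30 and 16.1 to 19.0 CPM for dendritic cells (Flt3, 1 of 6 rose and 3 fell), and 14.4 to 26.6 and 6.25 to 15.4 CPM for basophils and mast cells (Prss34 highest, 2 of 6 rose). The 2 that rose were Gata2, from a mean of 0.487 to 10.7 CPM, and Ms4a2, from 0.929 to 1.93 CPM. Prss34 and Mcpt8 had lower means with GM-CSF and were not called, and Cpa3 and Fcer1a were not tested. Sums were 22.8 to 25.3 and 21.0 to 31.7 CPM for progenitors (Kit, 1 of 5 rose and 1 fell), and below 4 CPM in every library for T cells (Lck), NK cells (Gzma) and erythroid cells (Alas2), with the haemoglobin genes Hbb-bs and Hba-a1 at 0. The part of these cells in the changes of the NF-kB and IkB genes was not tested, and in bulk RNA fewer cells of a type and less RNA per cell cannot be told apart.

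On GRCm38 the members lie on chromosomes 3 (Nfkb1, 135584655 to 135691547), 19 (Nfkb2, 46304320 to 46312385, and Rela, 5637483 to 5648130), 11 (Rel, 23736847 to 23770970) and 7 (Relb, 19606217 to 19629438, Bcl3, 19808462 to 19822770, and Nfkbib, 28758251 to 28767512). Nfkbia lies on chromosome 12 at 55489410 to 55492647, Nfkbiz on chromosome 16 at 55811375 to 55838899 and Nfkbie on chromosome 17 at 45555703 to 45563169. The annotation lists each of the 10 as protein-coding. Relb, Bcl3 and Nfkbib, all on chromosome 7, rose 2.33-fold, 2.37-fold and 1.70-fold, and a shared cause was not tested.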

How the data were processed

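The authors deposited raw read counts per gene symbol, 1 column per sample, matched to samples by title. Per the submitters' processing notes, the tools were HTSeq 0.6.1p1, STAR 2.5.2a, Trim Galore 0.4.4 and edgeR with build mm10, listed with no role. Annotation and strand setting: not given in the sources used here. Thus reads of overlapping genes may be mixed, or set aside in the ambiguous entry, which held 1.44% to 1.53% of counted reads. Entries that name no gene (28.8% to 30.6% of counted reads) were left out. The test was run with edgeR 4.0.16 under R 4.3.3 (TMM, filterByExpr with minimum count 10 and minimum total 15, quasi-likelihood F test, group as the only term). P-values were adjusted over the 11731 genes kept, at a threshold of 0.05. "Rose" and "fell" mean past it. The SE was taken as the size of the log2 fold change over the root of F. CPM used the total of gene counts, and RPKM the exon union of GENCODE M21 (GRCm38, the assembly of mm10). Intervals of counting error are not given. The SD of 3 libraries need not cover that error, as for Nfkbiz with GM-CSF (350, 350 and 465 reads, SD 0.422 CPM).

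The genes and lists were chosen with earlier results of these data known, and the lists are no independent support. Named were all 10 members, from each list the 3 largest called changes (mean log2 CPM 1 or more) and every gene moving one way where 5 or fewer did, 5 further kinase and IkB genes, the 3 genes nearest to each of the 2 members with the largest change, and the highest marker of each other cell type; 1 gene that this rule names is not reported here. The motif search was chosen after seeing the data. Basophil and mast cell markers other than Prss34, the monocyte markers and the haemoglobin genes were named beyond the naming rule. Alternatives were other scalings (RLE, library size, upper quartile), filters, a robust prior, a replicate block, limma-voom (limma 3.58.1), DESeq2 1.42.0, removal of the 10 most abundant genes, and leaving out each library. The procedure was tested on simulated counts.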

Additional observations from a re-analysis of the deposited data

How the results depend on the processing

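All 9 genes that rose kept their direction and their call in each of the 16 alternatives, with log2 fold changes of 1.95 to 2.17 for Rel, 1.44 to 1.60 for Nfkb2, 1.03 to 1.49 for Bcl3 and 0.37 to 0.59 for Rela. The count of members that fell was 0, and became 1 (Nfkbiz) with RLE size factors, library size alone, upper quartile scaling, the filter of at least 1 CPM in 3 libraries and removal of the 10 most abundant genes. Leaving out single libraries gave 0 to 1, the latter without control replicate 2. Upper quartile scaling shifted the log2 fold changes of all genes by a median of -0.117, and the median of the members was then 1.07. Under it the ubiquitin-dependent regulators that fell went from 2 to 4, and the direction of Map3k14, which was not called, turned (log2 fold change -0.044, adjusted p = 0.709). Of the target genes, the number that fell was 1 with the CPM filter, which tests fewer genes. It was 3 with upper quartile scaling, with no filter and with the replicate block. When single libraries were left out, it was 1 (without control replicate 3) to 3 (without control replicate 1 or GM-CSF replicate 2). For the settings other than the CPM filter the cause was not tested. Deviations of same-numbered libraries from their group means correlated weakly (0.0222 to 0.130), beside -0.0728 to 0.0444 for libraries with different numbers. Whether equal numbers mark pairs was not settled, and the main test did not take them as pairs. With the number as a replicate block 7493 genes were called beside 7511, 9 members rose and 0 fell. The lowest member count, 252 reads, limits precision for Rel in controls.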
